A study of Homo sapiens with 6 samples.

Results

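Transcripts of the cytosolic ribosomal proteins were followed in NB4 cells through 72 h of all-trans retinoic acid (ATRA). The NB4 line comes from an acute promyelocytic leukaemia in which a translocation joins PML to RARA, and ATRA, which binds retinoic acid receptors, drives such cells to mature toward neutrophils. Each of 6 Affymetrix arrays held RNA of NB4 at another time: before treatment (0 h) or 4, 12, 24, 48 or 72 h into ATRA at 1e-06 M, in serum-supplemented medium. No time was replicated, no untreated array of a later time was analysed here, and time in ATRA cannot be told apart from time in culture.

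The members were genes of the platform annotation with a symbol of RPL or RPS followed by a digit, plus RPLP0, RPLP1, RPLP2 and RPSA where present, without pseudogenes, S6 kinases, antisense or readthrough genes and without RPS19BP1, which encodes a binding partner of RPS19 and no ribosomal protein. The rule found 76 genes on the platform. Of these, 61 had a probe set assigned to that gene alone, out of 19775 such genes in the series. The other 15 were covered only by probe sets assigned to several genes and have no value here, 13 of them because the annotation lists a small nucleolar RNA (snoRNA) of an intron of the gene beside the gene itself. They are RPL4, RPL5, RPL7A, RPL10, RPL13, RPL13A, RPL17, RPL21, RPL23, RPL28, RPS2, RPS3A, RPS13, RPS20 and RPS26. The probe set of highest mean level over the arrays stood for each gene, and 59 members passed a filter on low values (a highest value of at least 3.66, the median of all values, on the log2 scale), among 13594 genes. RPL36A and RPL3L did not pass, with levels of 2.73 to 3.56 and 3.11 to 3.52. The 59 comprised 20 genes of the small subunit, 29 of the large subunit, RPLP1 and RPLP2 of the P stalk, 7 paralogues named for their likeness to another member, and RPS4Y1, which is Y-linked, is counted, and is not described.

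Ribosomal proteins coat and hold together the ribosomal RNA of the small subunit, which decodes the message, and of the large subunit, which joins amino acids. The P stalk is a flexible arm of the large subunit that recruits elongation factors. Their messages are among the most abundant of a growing cell, and most begin with a terminal oligopyrimidine (TOP) tract, a run of C and T bases at the very start of the transcript through which the mTORC1 kinase controls their translation. A few genes have paralogues, usually expressed at lower levels or in fewer tissues, whose proteins can take the place of the main member or serve in ribosome assembly.

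Depth in the sense of counts does not exist for arrays, and 1 array per time limits the precision. Array medians lay between 3.64 and 3.69. The spiked control bioC averaged 8.01 and 8.11 on the 0 and 12 h arrays and 6.88 to 7.17 on the others, and the 3' control of 18S ribosomal RNA read 9.98 at 12 h against 5.80 to 6.80 on the other arrays. The difference between the 3' and 5' probe sets of GAPDH stayed between 0.02 and 0.21. Of 7 measured promyelocyte markers, 6 lay above the filter in untreated cells and 4 at 72 h, with ELANE below it on every array, while of 8 mature neutrophil markers 5 lay above it in untreated cells and 8 at 72 h. The median of the B cell, T cell and erythroid markers lay between 3.79 and 5.90 on every array.

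The start of the transcript is shown first, because it is a feature that the members share and that the rule for choosing them did not use. Sequences are those of RefSeq on GRCh38.p14, which holds a promoter for 64 of the 76 genes. A start was counted as a TOP start where the first transcribed base was C and each of the next 4 bases was C or T, on the coding strand alone, and a gene was counted where any of its listed starts qualified. Of the 64 genes, 44 had such a start (68.8%), against 5.14% of 27305 genes with a promoter in the table. Among main members that passed the filter 33 of 45 had one, and among the paralogues 1 of 6, RPL22L1. When the same 5 bases were looked for from 5 bases before the start to 5 after it, 52 of the 64 genes had them and 25.2% of all genes did. Among main members that passed the filter 39 of 45 had them there, and among the paralogues 2 of 6. Listed starts can be off by a few bases, so a missing match says only that these letters are not at the listed base.

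Each line below holds the 10 bases before the listed start and the first 20 transcribed, 5' to 3', with the run of C and T that begins with a C at the start in capitals. Pairs of a main member and its paralogue are given first, of which RPS27 and RPL22 are compared with their paralogues further on, followed by paralogues whose main member has no value or is not shown, and by main members whose values are described.
RPS27: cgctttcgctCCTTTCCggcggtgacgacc
RPS27L: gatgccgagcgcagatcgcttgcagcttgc
RPL22: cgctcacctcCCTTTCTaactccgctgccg
RPL22L1: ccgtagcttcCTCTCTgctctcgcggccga
RPL36A: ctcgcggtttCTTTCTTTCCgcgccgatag
RPL36AL: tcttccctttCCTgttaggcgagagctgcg
RPL7L1: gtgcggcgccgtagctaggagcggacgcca
RPL26L1: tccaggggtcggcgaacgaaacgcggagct
RPL10L: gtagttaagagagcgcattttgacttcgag
RPL24: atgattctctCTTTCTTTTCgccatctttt
RPL3: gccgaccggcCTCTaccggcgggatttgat
RPL39: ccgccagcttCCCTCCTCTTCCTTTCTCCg
RPS19: ccccgtcgttCCCTTTCCCCTggctggcag
RPS9: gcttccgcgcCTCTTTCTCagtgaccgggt

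On chromosomes the windows lie at chr1:153990752-153990781 (plus strand) for RPS27 and chr15:63157458-63157487 (minus) for RPS27L, at chr1:6199576-6199605 (minus) for RPL22 and chr3:170870176-170870205 (minus) for RPL22L1, and at chrX:101391001-101391030 (plus) for RPL36A and chr14:49620607-49620636 (minus) for RPL36AL. Those of RPL7L1, RPL26L1 and RPL10L lie at chr6:42879606-42879635 (plus), chr5:172958719-172958748 (plus, the first of 2 listed starts) and chr14:46651762-46651791 (minus). Those of RPL24, RPL3, RPL39, RPS19 and RPS9 lie at chr3:101686699-101686728 (minus), chr22:39319604-39319633 (minus), chrX:119791611-119791640 (minus), chr19:41860245-41860274 (plus, the TOP start of 2 listed) and chr19:54200848-54200877 (plus). Each window crosses the promoter and the beginning of the first exon. RPL39 has the longest run of those shown, 19 bases, and RPL3 stops after 4, 1 short of the definition. RPL36AL keeps 3, and RPL7L1, RPS27L, RPL26L1 and RPL10L begin with another base than C.

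The question the time course poses for these genes is whether the ribosome's own messages change as a proliferating promyelocyte matures. On the deposited scale the main members moved little. Of the 49 main members of the P stalk and both subunits other than RPL27A and RPLP2, which are treated separately below, 46 had a range of under 0.5 on the log2 scale over all 6 arrays. Over all 58 described members 47 had, and 29.0% of all genes that passed the filter, at any brightness. Among the 20 small subunit genes the differences from untreated cells at 72 h ran from -0.39 to 0.30, with a median of -0.10. Among 28 large subunit genes without RPL27A they ran from -0.82 to 0.19 with a median of -0.17. The middle 50% of all genes lay between -0.52 and 0.31 at 72 h. All 7 paralogues were below their untreated value at 72 h, with a median of -0.69. These directions hold on the deposited scale: with cyclic loess all 20 small subunit genes lay above untreated at 72 h, and 6 of the 7 paralogues below. With the shift on all hybridisation controls 4 of the 7 paralogues lay below untreated, and their median was -0.03. That shift put 24 members 2-fold or more above untreated at 48 h, against 2 on the deposited scale. Ranges were read on the deposited scale alone.

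**Figure D1:**
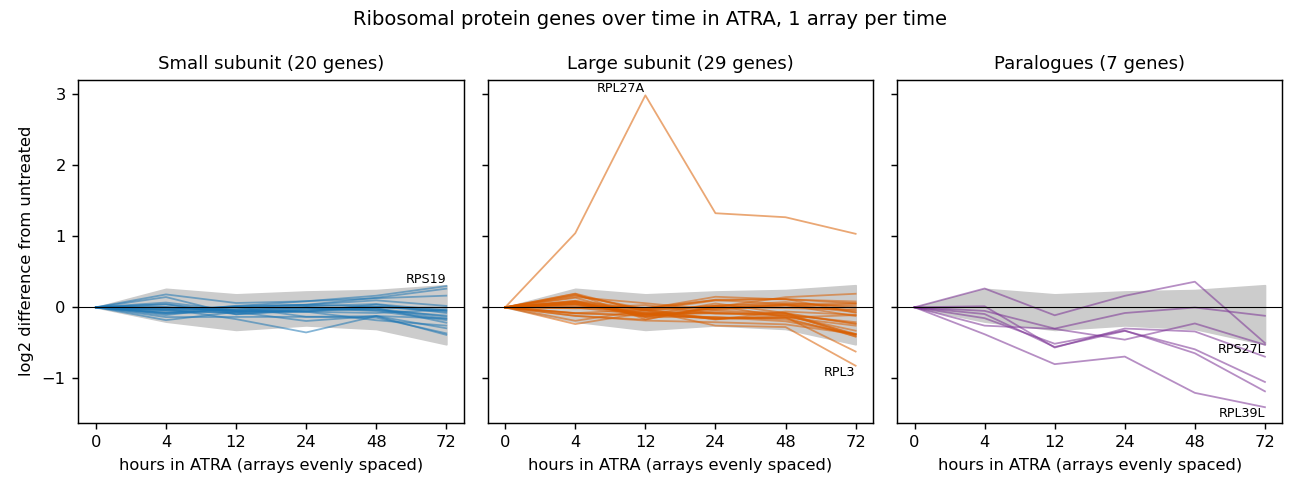
Log2 difference from the untreated array (vertical axis) on each array (horizontal axis, hours in ATRA, arrays evenly spaced, 1 array per time) for small subunit genes, large subunit genes and paralogues, 1 line per gene; the grey band holds the middle 50% of 13594 genes. Small subunit lines stay between -0.39 and 0.30, RPL27A stands out at 12 h with 2.98, and RPL39L ends lowest with -1.40.

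Across all 59 members the median difference from untreated was -0.0014, -0.065, -0.036, -0.034 and -0.13 on the 5 ATRA arrays in order of time. Over all genes it was 0.032, -0.057, -0.013, -0.020 and -0.059. The sign of the members' median depends on the scaling between arrays: with cyclic loess the 72 h median was 0.24, with a shift to an equal level of all hybridisation controls 0.53, and with the same shift without bioC -0.70. The median of all genes moved to 0.05, 0.60 and -0.62 under these scalings. At 72 h 46 of 59 members lay below their untreated value and at 12 h 49, against 30 at 4 h. Over all genes 54.7% lay below untreated at 72 h, 56.4% at 12 h and 45.8% at 4 h. The array at 72 h was the lowest for 31 of the 58 described members and the array at 12 h for 13. All 5 ATRA arrays lay below the untreated one for 19 members and above it for 3. The matching shares over all genes were not computed. Whether the counts of lowest arrays and of shared direction are particular to the members therefore cannot be told.

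On the deposited scale differences of 2-fold or more were few. No member was 2-fold lower at 4, 12 or 24 h, where 1.81%, 1.93% and 1.99% of all genes were. RPL39L was at 48 h (background 4.49%), and RPL39L, RPL22L1 and RPL7L1 were at 72 h (background 12.2%). The members 2-fold or more higher were RPL27A at 4, 12, 24, 48 and 72 h, joined by RPLP2 at 12 and 48 h, against 1.74%, 2.30%, 3.35%, 5.83% and 10.9% of all genes. Without RPL27A and RPLP2 no member was 2-fold higher at any time. At 1.5-fold, 0, 1, 1, 3 and 6 members were lower at the 5 times in order, against 6.76%, 9.49%, 7.59%, 12.4% and 23.0% of all genes. At each time 2 members were 1.5-fold higher, against 6.56%, 5.29%, 8.18%, 10.9% and 17.0%. At 4 h RPL18, a large subunit protein, had the most negative difference of the main members (-0.24), and at 12 h RPS19 had the most positive (0.06) after RPL27A and RPLP2.

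With 1 array per time, the test used across all genes was a slope over the order of the 6 arrays (0 to 5), fitted to 13594 genes with limma and adjusted by Benjamini-Hochberg. It called 5 members falling and 0 rising, where 9.86% of all genes were called falling and 8.33% rising. The share of members called falling was thus close to the background, while no member was called rising. With an unadjusted p under 0.05 there were 17 falling members and 1 rising, RPS27, against 19.1% of all genes falling and 13.6% rising. Slopes were below 0 for 43 of the 59 members and for 57.0% of all genes. The 5 called members were the paralogues RPL39L, RPL22L1 and RPL7L1 and the large subunit genes RPL3 and RPL24. The calls depend on single arrays: without the 0, 4 or 72 h array RPL39L alone was called, without 12 or 24 h RPL39L, RPL22L1 and RPL7L1, and without 48 h RPL39L, RPL7L1 and RPL3. Within the 4, 24, 48 and 72 h arrays, which share a bioC level, no member was called, and with the bioC level as a covariate RPL39L, RPL22L1, RPL7L1, RPL24, RPL26L1 and RPL8 were.

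**Figure D2:**
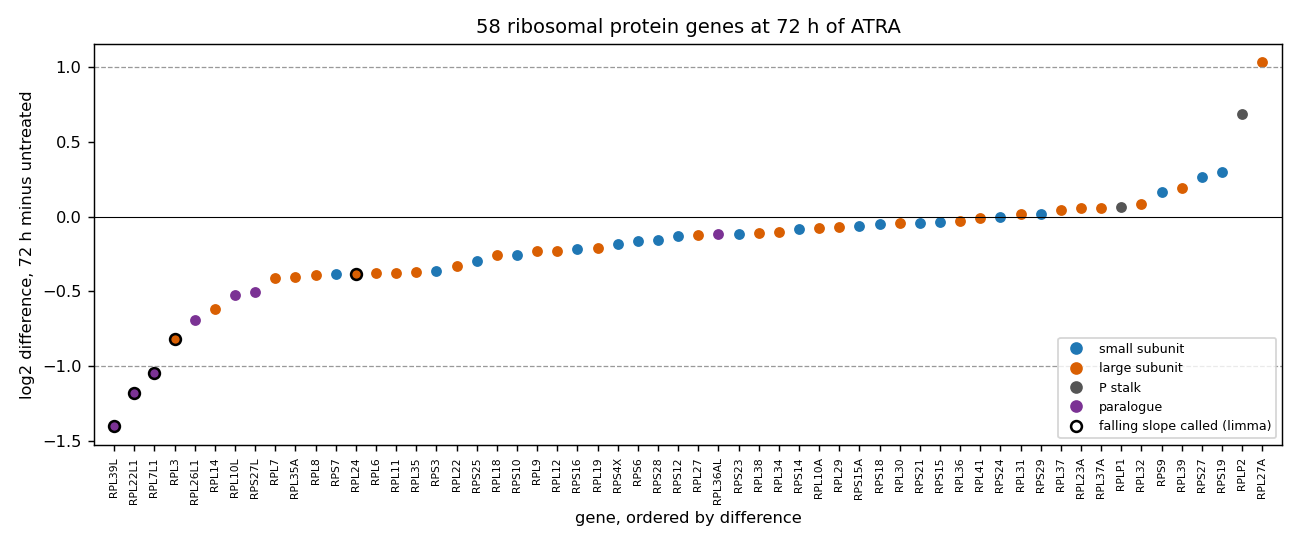
Log2 difference between the 72 h and the untreated array (vertical axis) for 58 members in order of that difference (horizontal axis), coloured by group, with a black rim where limma called a falling slope over the 6 arrays and dashed lines at 2-fold. The 3 lowest points are the paralogues RPL39L, RPL22L1 and RPL7L1, and the 2 highest are RPLP2 and RPL27A.

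Among the large subunit genes RPL3, a core protein close to the catalytic centre, was 12.26 in untreated cells and 12.07, 12.21, 12.00, 11.98 and 11.43 at 4, 12, 24, 48 and 72 h. The first 5 arrays lay within a narrow band and the 72 h array below it, at 1.77-fold under untreated. Its slope was -0.13 ± 0.04 per step (log2, SE, limma adjusted p = 0.0444). The only RPL3 probe set of 1 gene is marked x_at, for possible cross-hybridisation. A further 4 are assigned to RPL3 together with a snoRNA and were left out, so no other probe set backs this fall. RPL24, which bridges toward the small subunit, read 12.70, 12.77, 12.56, 12.56, 12.53 and 12.31, and its slope was -0.08 ± 0.02 (limma adjusted p = 0.0461). With the shift on all hybridisation controls both slopes turn positive, to 0.02 and 0.07. RPL24 has a further bright probe set, which fell from 12.37 to 11.85.

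RPL14 read 12.26, 12.14, 12.09, 12.29, 12.13 and 11.64 and did not pass (limma adjusted p = 0.165), although its other bright probe set, at 11.78 in untreated cells and 11.02 at 72 h, was called when every probe set was fitted on its own. RPL35A, a gene mutated in Diamond-Blackfan anaemia, went from 12.05 to 11.65 (limma adjusted p = 0.0628). RPL11, which with RPL5 and 5S ribosomal RNA can bind MDM2, stepped down from 12.26 through 12.14, 12.07, 12.05 and 12.02 to 11.88. That is the lowest level at the last array and an ordered series, with a slope that did not pass (limma adjusted p = 0.0657). RPL22, recurrently deleted in leukaemia, went from 12.41 to 12.08 (limma adjusted p = 0.0826), and RPL7 from 13.01 to 12.60 (limma adjusted p = 0.0841). RPL39, which lines the exit tunnel for the growing chain, went the other way, from 12.82 to 13.01 at 72 h, with no called slope. RPL38 (12.22 and 12.11), RPL41 (13.40 and 13.39) and RPL23A (12.99 and 13.04) had nearly the same level in untreated cells and at 72 h.

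No small subunit gene was called in either direction among 20. RPS19, the gene most often mutated in Diamond-Blackfan anaemia, read 12.49, 12.67, 12.55, 12.57, 12.65 and 12.79, and every ATRA array lay above the untreated one. Its difference of 0.30 at 72 h was the largest upward of the subunit genes other than RPL27A, and its slope of 0.04 ± 0.02 was not called (limma adjusted p = 0.227). RPS27, a zinc finger protein of the small subunit, read 12.57, 12.49, 12.59, 12.60, 12.70 and 12.83 (limma adjusted p = 0.0911), and RPS9 read 11.77 in untreated cells and 11.94 at 72 h. With cyclic loess 8 of the 59 members were called rising: RPS19, RPS27, RPS9, RPS29, RPL39, RPL32, RPL23A and RPL37A. That scaling also called 1469 of all 13594 genes rising, so the members' count lies near the background. In the other direction RPS7 went from 12.60 to 12.21, RPS3, which lies at the entry of the message channel, from 12.79 to 12.43, and RPS10 from 13.13 to 12.87, none called. RPS6, the classical substrate of the S6 kinases, was 12.99 in untreated cells and 12.83 at 72 h. RPS14, lost in the 5q- syndrome, was 12.93 and 12.85, RPS24 13.11 and 13.10, RPS15 13.04 and 13.01, and RPS15A 12.76 and 12.70.

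The main members sit near the top of the scale, which bears on all of these values. Of the 59, 50 had a mean level at or above percentile 99 of all probe sets (10.8), and 44 a mean of at least 12, where 218 probe sets (0.399%) of the whole array lie. The highest value on any array was 13.6. Arrays compress differences at such brightness and quantile normalization fixes the top of each array's distribution, and how far either holds down the differences given here was not tested. The median residual SD about the slope was 0.08 for members and 0.21 for all genes.

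Of the 8 paralogues measured, 7 passed the filter. RPL39L, a paralogue of RPL39 known from testis and tumours, read 6.23, 5.85, 5.43, 5.54, 5.03 and 4.83. Every ATRA array lay below the untreated array, and the 72 h value was 2.65-fold lower. Its slope was -0.27 ± 0.04 per step (limma adjusted p = 0.0073), and among the members it alone was called whichever single array was left out. RPL22L1, which can replace RPL22 in the ribosome, read 9.02, 8.87, 8.51, 8.69, 8.37 and 7.84, which is 2.27-fold lower at 72 h, with a slope of -0.21 ± 0.05 (limma adjusted p = 0.0276). RPL7L1, which acts in assembly of the large subunit, read 10.60, 10.51, 10.04, 10.27, 10.01 and 9.55, 2.07-fold lower at 72 h, with a slope of -0.19 ± 0.04 (limma adjusted p = 0.0236). In these 2 genes, as in RPL39L, the 12 h array lay below the 24 h array. All 3 slopes stayed below 0 under each scaling tried, at -0.12, -0.06 and -0.04 with the shift on all controls, where none was called.

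The other paralogues were not called. RPL26L1, close in sequence to RPL26, read 9.04, 9.05, 8.47, 8.74, 8.70 and 8.34 (limma adjusted p = 0.137). RPL10L, an autosomal retrogene of RPL10 used in male meiosis, read 4.80 in untreated cells and 4.27 at 72 h, close to the filter on all arrays (limma adjusted p = 0.236). RPS27L, a target of p53, read 9.34, 9.60, 9.23, 9.50, 9.70 and 8.84, highest at 48 h and lowest at 72 h, with no steady direction (limma adjusted p = 0.629). RPL36AL read between 10.69 and 10.99 on the 6 arrays.

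Whether a paralogue's course differed from that of its main member was tested for the 4 pairs in which both passed the filter, on the difference between their log2 values within each array, which a shift of a whole array cannot change. The exact two-sided permutation test over all 720 orders of the arrays was applied to the slope, with p-values adjusted over the 4 pairs. For RPL39L less RPL39 the slope was -0.30 per step (Pearson r = -0.97, exact permutation p = 0.0056, adjusted 0.022; Spearman rho = -0.94, exact permutation p = 0.017, adjusted 0.033). Relative to untreated, RPL39L had lost 0.47 against RPL39 at 4 h and 1.59 at 72 h. For RPL7L1 less RPL7 the slope was -0.12 (r = -0.91, exact permutation p = 0.022, adjusted 0.030; rho = -0.94, exact permutation p = 0.017, adjusted 0.033). For RPL22L1 less RPL22 it was -0.14 (r = -0.88, exact permutation p = 0.022, adjusted 0.030; rho = -0.83, exact permutation p = 0.058, adjusted 0.078). For RPS27L less RPS27 it was -0.11 (r = -0.53, exact permutation p = 0.29, adjusted 0.29; rho = -0.31, exact permutation p = 0.56, adjusted 0.56). Without the 0 and 72 h arrays, the farthest from the median order, r over the remaining 4 arrays was -0.88, -0.69, -0.55 and -0.06 for RPL39L, RPL7L1, RPL22L1 and RPS27L. The relation for RPL22L1 therefore rests in good part on those 2 arrays, and that for RPL7L1 was weaker without them. The relation for RPL22L1 also did not pass without the probe sets marked x_at, which can cross-hybridise (slope -0.12, exact permutation p = 0.092, adjusted 0.14), when RPL22 is read from a dimmer probe set. The paralogues lie at lower signal than their main members, and the part of signal level in these differences was not tested.

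**Figure D3:**
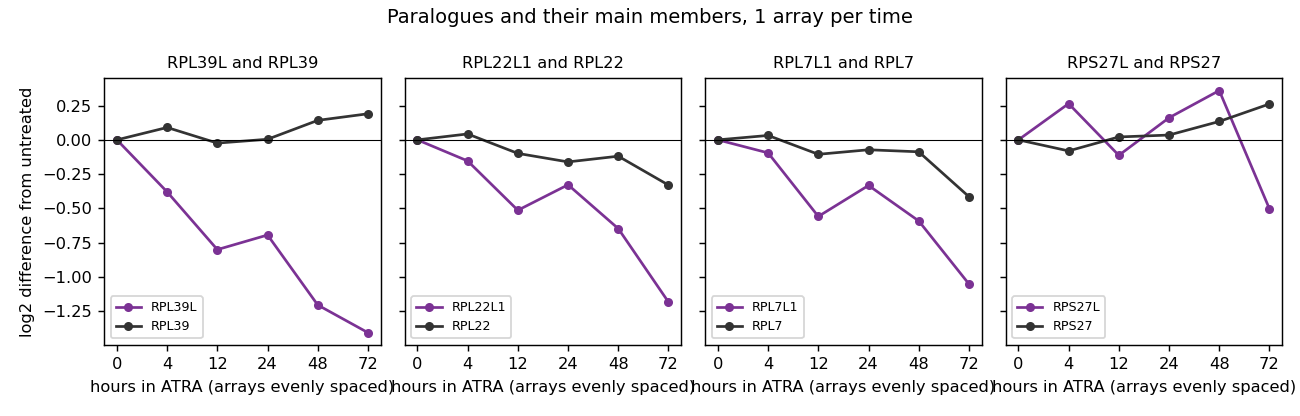
Log2 difference from the untreated array (vertical axis) on each array (horizontal axis, hours in ATRA, arrays evenly spaced, 1 array per time) for 4 paralogues in purple and their main members in dark grey. RPL39L ends at -1.40 while RPL39 ends at 0.19, RPL22L1 and RPL7L1 run below RPL22 and RPL7 on every ATRA array, and RPS27L crosses RPS27.

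The probe sets that stood for RPL27A and RPLP2 had a different course from those of the other main members. A further 2 probe sets of RPL27A and 1 of RPLP2 are assigned to the gene together with a snoRNA. The rule left these out, so the values below may not speak for the whole message of either gene. RPL27A, a large subunit protein, was read by a probe set at 5.91 in untreated cells and 6.95, 8.89, 7.23, 7.17 and 6.94 on the following arrays. RPLP2, which pairs with RPLP1 in the stalk, read 4.31, 5.27, 6.84, 5.23, 5.33 and 5.00. Both were lowest in untreated cells and highest at 12 h, by 2.98 and 2.53. RPLP1 read between 12.98 and 13.09 throughout. On the same arrays the 3', 5' and middle probe sets of the 18S control were higher than untreated by 3.92, 3.57 and 2.82 at 12 h and by at most 0.86 on any other array. A 5' probe set of the 28S ribosomal RNA control read 6.77, 6.33, 10.32, 7.48, 9.51 and 9.63, high at 12 h and again at 48 and 72 h. Its middle probe set differed from untreated by 1.39, 1.32 and 1.30 at these times, and its 3' probe set by 0.025, -0.36 and -0.45. At 4 h the 3', 5' and middle probe sets differed by -0.26, 0.36 and 0.27 for 18S and by -0.43, -0.44 and -0.79 for 28S. RPL27A and RPLP2 were then higher by 1.04 and 0.96. The part of ribosomal RNA in the values of RPL27A and RPLP2 was not tested. Neither slope was called (limma adjusted p = 0.72 and 0.86).

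High values at 12 h also appeared in dim probe sets of other members. Of 114 probe sets that passed the filter for the 58 members, 8 were 2-fold or more higher at 12 h, against 2.16% of the 25189 kept probe sets of 1 gene in the series, and 0 were 2-fold lower, against 1.92%. The 8 higher ones belong to 7 genes and include the probe sets of RPL27A and RPLP2. Of the 8, 5 belong to main members that also have a probe set with a mean of at least 11. All 8 were lowest in untreated cells and 7 were highest at 12 h, a course that choosing them by a rise from untreated to 12 h favours. The matching share over all probe sets chosen in this way was not computed. A pair of RPL38 probe sets read 7.22 and 6.50 in untreated cells and 10.03 and 9.88 at 12 h, 7.02-fold and 10.4-fold higher, while the bright RPL38 probe set read 12.22 and 12.18. At 4 h they were already 4.63-fold and 5.04-fold higher. They were still 2.95-fold and 3.01-fold higher at 72 h. There the 3' probe set of the 18S control differed from untreated by 0.03. The 5', middle and 3' probe sets of the 28S control differed by 2.86, 1.30 and -0.45. A single probe set each of RPS10 (2.35), RPL14 (1.77), RPL37A (1.67) and RPS27L (1.34) made up the rest, with the log2 difference at 12 h in brackets.

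**Figure D4:**
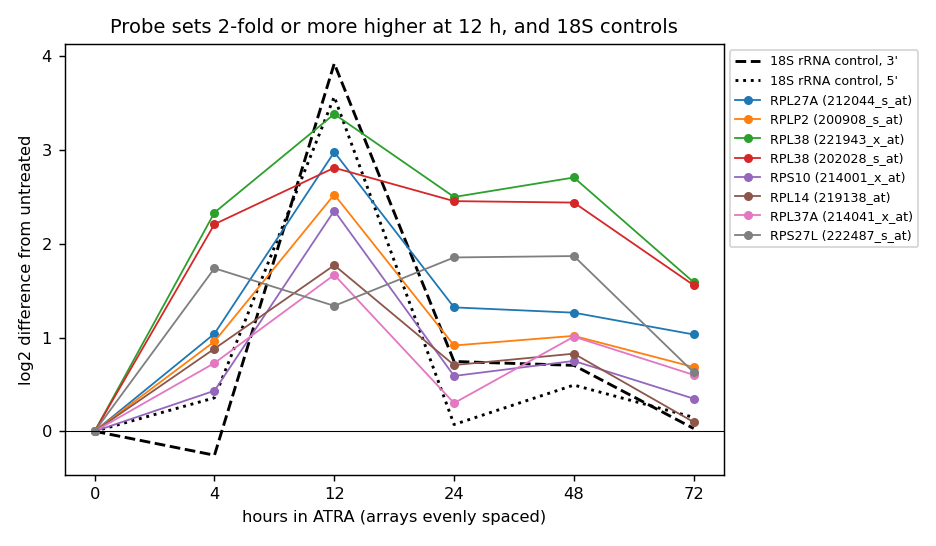
Log2 difference from the untreated array (vertical axis) on each array (horizontal axis, hours in ATRA, arrays evenly spaced) for the 8 member probe sets 2-fold or more higher at 12 h, in colour, and for the 18S ribosomal RNA controls, in black. All peak at 12 h but that of RPS27L, and both RPL38 probe sets also stay above 1.5 on the other ATRA arrays.

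Dim probe sets also differed at 72 h. They were divided from bright ones at a mean of 11, a cut set after the values were seen. Among the 67 member probe sets with a mean of at least 11, none was 2-fold lower or higher at 72 h. Their differences ran from -0.82 to 0.30. Among the 47 below a mean of 11, 12 were 2-fold or more lower and 4 higher. Of all kept probe sets, at any brightness, 12.8% and 10.8% were. Of the 12, 9 belonged to 7 main members. All 9 had their lowest value at 72 h, which choosing them by a fall at 72 h favours. The matching share over all probe sets chosen in this way was not computed. Those of RPL37 read 7.58, 6.09 and 8.30 in untreated cells and 5.46, 4.06 and 7.19 at 72 h, 4.35-, 4.10- and 2.16-fold lower, while its bright probe set read 13.08 and 13.12. A dim probe set of RPS24 went from 7.21 to 5.61 (3.03-fold), of RPS29 from 6.29 to 4.59 (3.26-fold), of RPS23 from 7.24 to 5.63 (3.04-fold) and of RPS28 from 5.60 to 4.25 (2.55-fold). Those of RPL37A and RPL35A were 2.19- and 2.15-fold lower. A dim probe set of RPS6 was 2.35-fold higher, at 7.29 against 6.06.

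Fitted one by one, 11 of the 114 probe sets were called falling and 0 rising, against 9.68% and 7.47% of all probe sets. The dim probe sets of RPS24, RPS28 and RPS29 were among them (limma adjusted p = 0.0277, 0.0375 and 0.0488), as were bright ones of RPL14, RPL24 and RPS16. Of the 32 members with several kept probe sets, 9 had probe sets that disagreed by 2-fold or more at 72 h: RPL37, RPL37A, RPL38, RPS6, RPS23, RPS24, RPS27L, RPS28 and RPS29. The share of all genes with such a disagreement was not computed, so whether this count is particular to the members cannot be told. Which transcripts the dim probe sets read (an intron, another transcript end or a pseudogene copy) was not tested, and ribosomal protein genes have many processed pseudogenes whose transcripts a probe set could share.

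**Figure D5:**
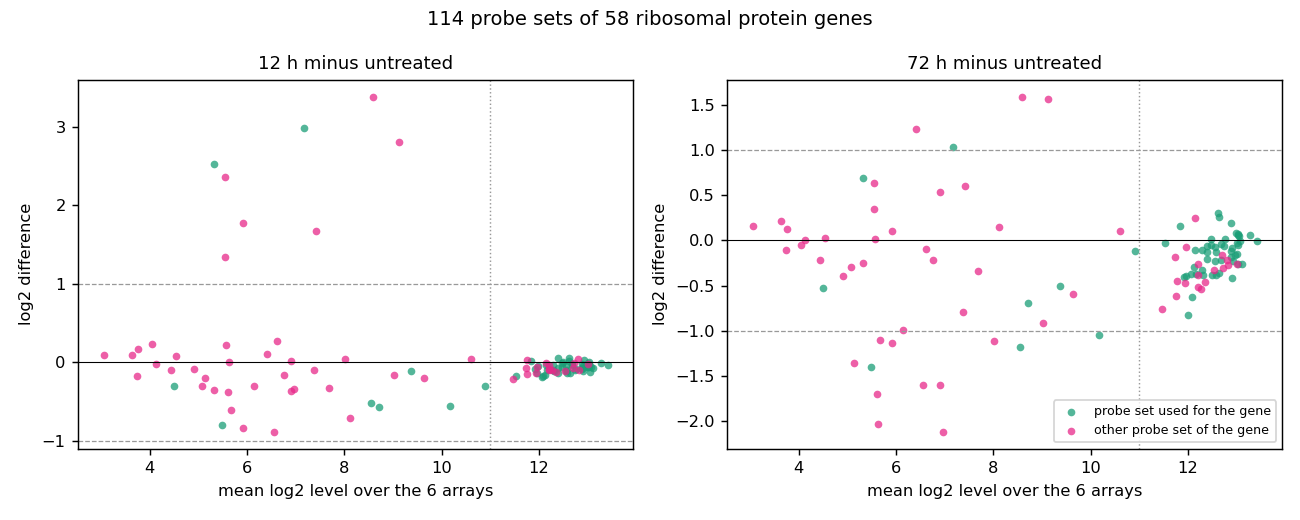
Log2 difference from the untreated array (vertical axis) at 12 h and at 72 h against the mean log2 level over the 6 arrays (horizontal axis) for 114 probe sets of 58 members, green where the probe set represents its gene and pink otherwise; dashed lines mark 2-fold and the dotted line a mean of 11. Right of the dotted line every point lies within 2-fold in both panels, while probe sets to its left spread from -2.12 to 1.59 at 72 h.

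Genes around the ribosome were read from lists chosen for function, with the same limma fit and the same background of 9.86% falling and 8.33% rising. FAU, which encodes a small subunit protein fused to a ubiquitin-like part, was the only measured ribosomal gene without an RPL or RPS symbol and differed by -0.19 at 72 h without a call. Of 17 other TOP messages, 5 fell and 0 rose, with a median of -0.44 at 72 h. VIM, which encodes the filament protein vimentin, had a difference of -2.88 and LGALS1, a galactose-binding lectin, of -1.86. EIF4B, a cofactor of the helicase that unwinds message starts (-1.85), the nucleolar chaperone NPM1 (-0.85) and EIF3E (-0.82) were the others called. Of 20 initiation factors 6 fell and 0 rose, with a median of -0.72, led by EIF3B (-1.83), EIF1AX (-1.68), EIF5B (-1.44) and the cap-binding EIF4E (-1.24).

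Of 18 dedicated chaperones and assembly partners of ribosomal proteins, 8 fell and 0 rose, with a median of -1.04 at 72 h. PDCD2L, which like PDCD2 escorts a small subunit protein, differed by -2.50 and MRTO4, which holds the place of the P stalk during assembly, by -2.38. PRMT3, which methylates RPS2, differed by -1.87 and TSR1, an assembly factor of the small subunit, by -1.79. A further 3 partners are given for the member they serve, chosen after their values were seen. BCCIP, a chaperone of RPL23, fell (-1.25), HEATR3, which imports RPL5 and RPL11, fell (-1.57), and TSR2, the escort of RPS26, differed by -0.07 without a call. RPS19BP1 differed by -0.38 without a call. Of 15 genes of the S6 kinase and mTORC1 arm 3 fell and 0 rose: MLST8, an mTORC1 subunit (-1.52), the translation repressor EIF4EBP1 (-1.43) and the S6 kinase RPS6KB1 (-1.02). LARP4, which binds poly(A) tails, differed by -0.92 without a call. With the 72 h array left out, 3, 1, 2 and 0 genes fell in the TOP, initiation, chaperone and mTORC1 lists. The chaperone list's median at 72 h stayed negative under each scaling (-0.73 with cyclic loess, -0.38 with the shift on all controls and -1.61 without bioC), as did that of the initiation factors (-0.37, -0.06 and -1.29), while the TOP and mTORC1 medians turned to 0.22 and 0.32 with the shift on all controls. No gene of the initiation, chaperone or mTORC1 lists was called with that shift, and 1 of the TOP list was. Of all 13594 genes, 48 were called falling with it and 1039 rising. A difference between these lists and the ribosomal proteins was not tested.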

How the data were processed

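The authors deposited log2 expression levels per probe set, and the submitters' processing notes name RMA. Its software version is not given in the sources used here. Since RMA equalises the distributions, it would hide a shift shared by most transcripts. The values of 54675 probe sets lay between 1.39 and 13.6. Of these, 41097 carry 1 gene in the platform annotation, and symbols were updated through Entrez identifiers to GRCh38.p14. The labels' times defined the groups. The members, the lists and the settings were chosen with earlier results of these data known. Differences of single arrays carry no p-value. Slopes came from lmFit and eBayes (trend = TRUE) of limma 3.58.1, run in R 4.3.3, and were called at an adjusted p under 0.05. Tested on simulated data with 13594 genes, this fit made 12 false calls and found 63 of 100 genes given a slope of 0.3 and 88 of 100 given 0.6. The simulated noise was independent between genes and arrays, without effects of a whole array. The called members had slopes smaller in size than 0.3, so the simulation does not give their recovery or the false calls in these data. Correlations used SciPy 1.17.1. Genes named are those with the largest differences at 4, 12 and 72 h, the called slopes, every paralogue, genes of known disease or regulatory roles, and members whose probe sets disagree. Dim and bright probe sets were divided at a mean of 11 after their values were seen. Alternatives were other scalings, probe set rules, filters, baselines and thresholds, slopes over hours, the bioC level as a covariate, and leaving out each array.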

Additional observations from a re-analysis of the deposited data

How the results depend on the processing

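The count of falling members was 5. It was 3 with cyclic loess, with no filter and with eBayes without an intensity trend, 0 with the shift on all hybridisation controls and within the 4, 24, 48 and 72 h arrays, 16 with the shift without bioC, 9 with a filter at percentile 75, 11 over hours, 1 over log2(hours + 1), 11 with each probe set on its own, and 1 to 3 with 1 array left out. Over all 13594 genes, 1341 were called falling on the deposited scale. That number was 1063 with cyclic loess, 48 with the shift on all controls and 3268 with the shift without bioC. The members' counts under these scalings thus moved with those of all genes. The rising count of 0 became 8 with cyclic loess, where 1469 of all genes rose, and 1 over hours. RPL24 and RPL3 turned to slopes of 0.0717 and 0.0163 with the shift on all controls. The cause was not tested for these, beyond the construction of each alternative.

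Median differences at 4, 12, 24, 48 and 72 h were 0.71, -0.21, 0.79, 0.97 and 0.53 after the shift on all controls, against -0.41, -0.15, -0.52, -0.39 and -0.70 without bioC. With cyclic loess they were 0.0786, 0.0467, 0.0624 and 0.24 from 12 h on. At 72 h the median was -0.21 with the mean of all probe sets and -0.22 against the 4 h array. Members 2-fold lower at 72 h, 3, were 1 with cyclic loess, 0 with the shift on all controls, 8 without bioC, 6 at 1.5-fold and 12 as probe sets. At 48 h the 1 became 0, 2 and 3 with these shifts and at 1.5-fold, and 0 against the 4 h array. The 0 at 12 h became 1 at 1.5-fold, and the 0 at 24 h became 1 without bioC and 1 at 1.5-fold. Members 2-fold higher at 4, 24 and 72 h, 1 each, were 2 each with the shift on all controls, the mean of all probe sets, no x_at probe sets and 1.5-fold, and 0 without bioC. The 2 at 48 h were 0 without bioC and 24 with the shift on all controls. Against the 4 h array, and against the mean of 0 and 4 h, counts higher were 0 at 24, 48 and 72 h. As probe sets they were 4, 8, 5, 6 and 4 at the 5 times, and without RPLP2 and RPL27A 0 at each, both chosen after seeing the data. RPL22L1 against RPL22 gave -0.12 without x_at probe sets and no longer passed. Of the TOP, initiation, chaperone and mTORC1 lists 3, 1, 2 and 0 genes fell when the 72 h array was left out. The 72 h medians by group were also rescaled after seeing the data. Those of the small and large subunits turned to 0.295 and 0.263 with cyclic loess and to 0.565 and 0.540 with the shift on all controls, which also turned the TOP and mTORC1 lists to 0.220 and 0.315. The paralogue median of -0.69 was -0.49, -0.03 and -1.26 with cyclic loess, the shift on all controls and the shift without bioC. No paired analysis was possible because each time has 1 array. Without x_at probe sets 51 members were in the fit, and RPL3 and RPL7L1 have no value there. Signal near the top of the scale limits the main members most, and low signal limits RPL10L, RPL39L and the dim probe sets.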
